A study of Rattus norvegicus with 21 samples.

Results

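The data described here are 6 of the 21 bulk RNA-seq libraries of a rat time course, namely 3 uninjured bladders taken at 2 weeks and 3 taken at 8 weeks, chosen by their group labels alone. The animals were male Sprague Dawley rats, an outbred strain, of wild-type genotype, 6 to 7 weeks old at the start, and served as non-injured controls to rats with complete spinal cord transection at T8. Weeks count from the injury in the injured arm (SCI), and each library was made from full-thickness urinary bladder. The other 15 libraries are uninjured bladders at 0 and 16 weeks and SCI bladders at 2, 8 and 16 weeks, 3 in each group. The comparison asks how the bladder transcriptome changed over this interval in rats without injury, against which the injured bladders of the same weeks are read.

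The bladder stores urine at low pressure and expels it by contraction of the detrusor, the smooth muscle of its wall. A layered epithelium, the urothelium, lines the lumen, and a connective tissue layer with vessels, nerves and fibroblasts lies between them. In young rats the organ is still growing, so gene expression in uninjured animals can move with age, and age-matched controls are needed for each week of an injury study. RNA from the whole wall mixes all of these cell types, so fewer cells of a type and less RNA per cell cannot be told apart. Age and the time of collection cannot be told apart either, since the sample titles give the week but neither a collection date nor a batch.

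The 2-week libraries held 11047822, 12273238 and 9902364 counts assigned to genes, and the 8-week libraries 9157219, 9467860 and 9487928, against 8087726 to 15472537 over all 21. Of 32754 genes in the table, 15138 had enough counts to be tested. The 2-week bladders had a count for 19402 to 19807 genes and the 8-week bladders for 19110 to 19211, and the 10 most abundant genes held 9.51 to 10.7% of counts at 2 weeks and 11.0 to 11.8% at 8 weeks. Genes carry Ensembl identifiers only, and 0 of them matched the reference table of names used here. No gene could therefore be given a name or a role, the tissue label was not checked against bladder markers, and pathway lists were not applied. Genes are described by identifier for 2 that rose and 2 that fell, and by level, size and direction for the rest.

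In the edgeR model used here, few genes passed correction for multiple testing between 8 and 2 weeks, and the count depended on the test. Of the 15138 tested genes, 211 passed an adjusted p of 0.05 in edgeR's quasi-likelihood F test, which is 1.39% of them. Among these, 87 genes (0.575%) were higher at 8 weeks and 124 (0.819%) were lower. Fold changes come from a model of 18 libraries, leaving out the 0-week controls, with 1 mean per group and a spread shared by all groups. Most called changes were modest. The genes that rose did so by a median of 1.76-fold, with a range of 1.20 to 15.7, and 25 of the 87 rose more than 2-fold. The genes that fell did so by a median of 1.55-fold, with a range of 1.23 to 5.06, and 18 of the 124 fell more than 2-fold. Over all tested genes the median log2 fold change was 0.00 and the median absolute log2 fold change was 0.19. Every library of 8 weeks lay above every library of 2 weeks in 86 of the 87 genes that rose, and below in all 124 that fell. Such separation was also found for 27.3% of all tested genes, 14.2% in the upward and 13% in the downward direction.

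The count of called genes rested on a narrow margin. The lowest adjusted p in edgeR was 0.0397, shared by 81 genes, and the highest among called genes was 0.0494. At an adjusted p of 0.06 the count was 418 genes, and at 0.1 it was 1371. An unadjusted p under 0.05 was reached by 3510 genes (23.2%), 1818 higher and 1692 lower, where 757 would be expected if no gene differed. With all 21 libraries in the model edgeR called 0 genes, with 2881 at an unadjusted p under 0.05, whereas DESeq2 on the same 21 libraries called 269, of which 146 were higher and 123 lower. With library size as the only scaling the count was 831, but the split shifted to 141 higher and 690 lower, so that 17.0% of called genes were higher rather than 41.2%. The larger direction also turned with other models. Higher and lower genes numbered 301 and 152 with only the 6 compared libraries, 345 and 270 with the 9 controls of 2, 8 and 16 weeks, 602 and 545 by DESeq2, and 540 and 475 by the likelihood ratio test of edgeR. Library size scaling lowered the median log2 fold change of all tested genes by 0.13.

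Single libraries also decided the count. Without 2-week control replicate 1 edgeR called 0 genes, with 2872 at an unadjusted p under 0.05. It called 1 gene without 2-week control replicate 2, and 0 without replicate 3, with 3441 at an unadjusted p. Without 8-week control replicate 2 the count was 0, with 2751 at an unadjusted p, and without replicate 3 it was 49. SCI libraries enter the test through the shared spread and through the filter on low counts, which also changed when 1 was left out. Without SCI 2-week replicate 1 the count was 0, with 3367 at an unadjusted p. It was 573 without SCI 8-week replicate 1, 1184 without replicate 2 and 1 without replicate 3. Without SCI 16-week replicate 1, 2 or 3 it was 3, 123 or 23 genes. Removal of 8-week control replicate 1 gave 239 genes, 53 of them higher and 186 lower.

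**Figure D1:**
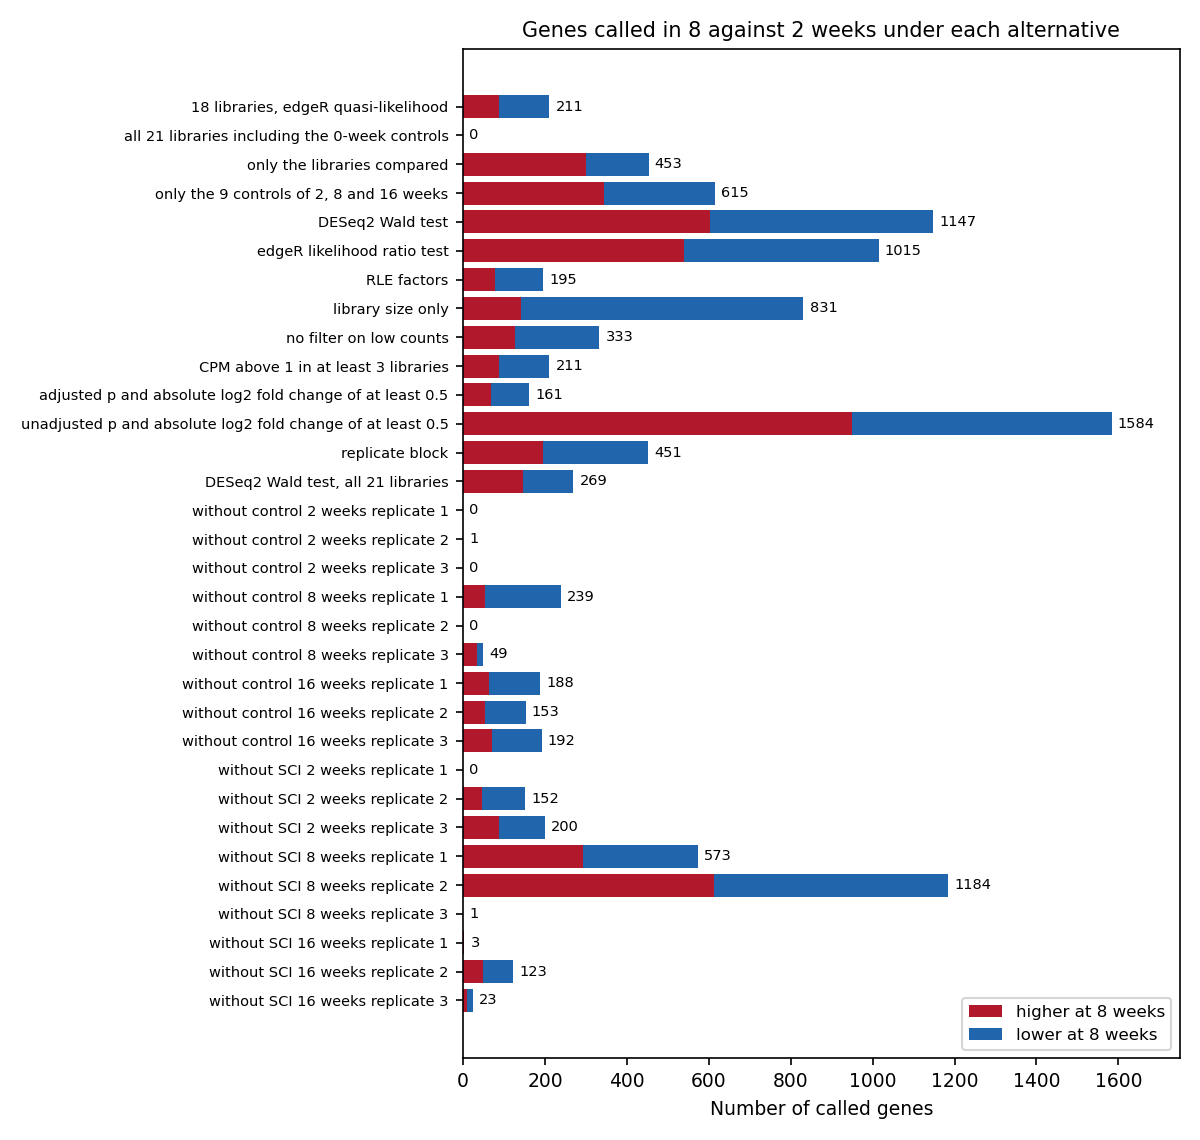
Number of genes called in 8 against 2 weeks (horizontal axis) under each processing alternative (1 bar each), split into genes higher (red) and lower (blue) at 8 weeks. Counts ranged from 0 to 1584 around the 211 genes of the 18-library model, and 4 of the bars at 0 are libraries left out 1 at a time.

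The size of the called changes differed with abundance. Among 1687 genes with an average level under 1 log2 CPM, CPM being a library's counts scaled to a common total,, 5 rose and 2 fell, with a median absolute log2 fold change of 2.13. Among the 1532 genes over 7 log2 CPM, 16 rose and 27 fell, with a median absolute log2 fold change of 0.57. The median standard error of the log2 fold change was 0.45 in the former and 0.10 in the latter. Large differences in rare genes were thus measured poorly. Of 469 genes that differed by more than 2-fold, 277 upward and 192 downward, 43 were called and 426 were not. The weeks overlapped in 189 of these 469 genes. The uncalled gene with the largest fitted increase had 3, 1 and 4 counts in the 2-week bladders and 47, 139 and 104 in the 8-week bladders. Its log2 fold change was 5.46 (SE 1.52), and its adjusted p in edgeR was 0.0680. All 3 of its 8-week libraries lay above all of its 2-week libraries, yet they differed among themselves as well. The uncalled gene with the largest fitted decrease had 1, 0 and 26 counts at 2 weeks and 0 in each 8-week bladder, so 1 library carried nearly all of its counts.

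**Figure D2:**
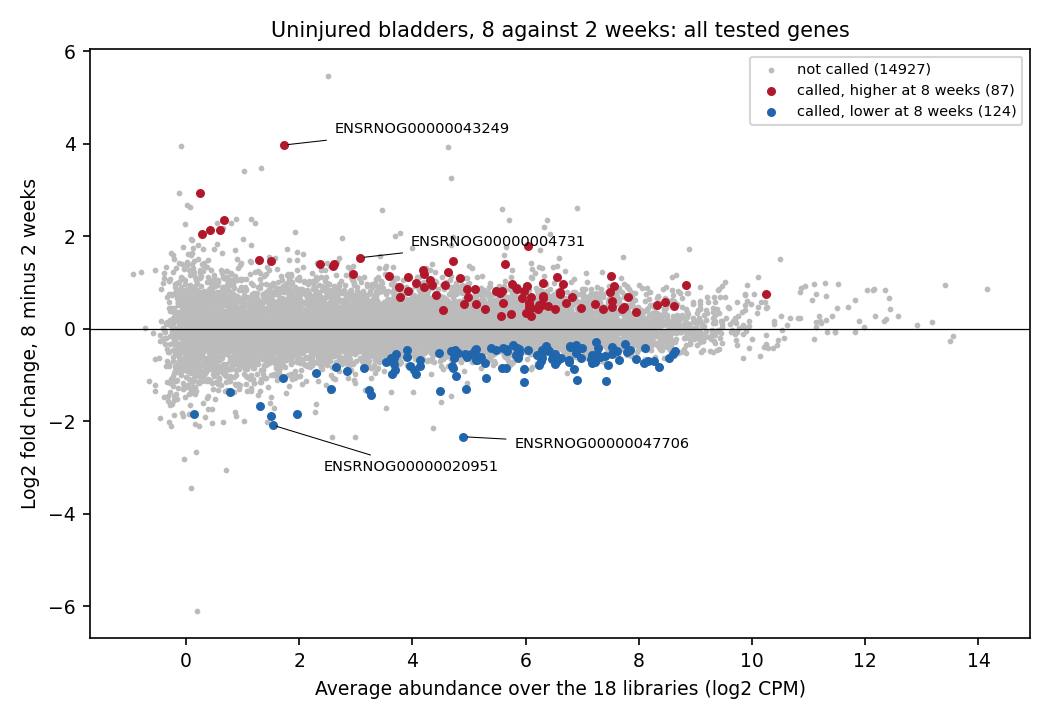
Log2 fold change of 8 minus 2 weeks (vertical axis) against average abundance in log2 CPM over 18 libraries (horizontal axis), 1 point per tested gene. Genes called higher (red, 87) and lower (blue, 124) include many small changes in abundant genes, while most of the largest fitted changes, at low abundance, were not called (grey).

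No gene switched fully on or off within the depth of these libraries. The number of genes with at least 5 counts in every library of one week and 0 in every library of the other was 0 in both directions. With any count in every library as the limit, 31 genes were seen only at 8 weeks and 57 only at 2 weeks, each with under 5 counts in at least 1 library. A gene with 0 counts in a library could still be present at up to 3 counts. The genes that rose held 0.666 to 0.701% of the counts of the 2-week bladders and 0.974 to 1.05% of those of the 8-week bladders. The genes that fell held 1.13 to 1.28% and 0.667 to 0.764%. These shares follow from how the genes were chosen and describe how much of the RNA was involved.

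The most abundant transcripts held a larger share of counts at 8 weeks, and 1 of 70 was called, close to the 1.39% of all tested genes. Of 70 genes with an average level over 10 log2 CPM, 53 had a positive and 17 a negative log2 fold change. Their median was 0.26, against 0.00 over all tested genes. Together the 70 genes held 21.7 to 23.3% of counts at 2 weeks and 25.3 to 27.0% at 8 weeks. With library size as the only scaling 48 of them were positive, with a median of 0.14, against -0.12 over all tested genes. The scaling factors of the trimmed mean of M-values (TMM), which absorb such shifts in composition, were 0.989 to 1.03 at 2 weeks and 0.919 to 0.939 at 8 weeks. This list was set by level and not by change, but no test was made over it.

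ENSRNOG00000043249 had the largest increase among called genes with an average level of at least 1 log2 CPM and no overlap between weeks. Its level was 0.268, 0 and 0.304 CPM in the 2-week bladders, from 3, 0 and 3 counts, and 3.07, 3.67 and 2.25 CPM in the 8-week bladders, from 26, 32 and 20 counts. All 8-week bladders were higher than all 2-week bladders, in which the gene was near the limit of detection. The group means were 0.191 ± 0.166 and 3.00 ± 0.713 CPM (SD, n = 3), and the log2 fold change was 3.97 (SE 0.72, 95% confidence interval 2.44 to 5.50, adjusted p in edgeR = 0.0397). From the summed counts of 6 and 78 the ratio of levels was 15.4, with an exact 95% interval of 6.75 to 43.1 that covers counting error only. At 0 weeks the 3 bladders held 4.85, 0.949 and 0.223 CPM, so 1 bladder was above every 8-week bladder before the interval. At 16 weeks it stood at 1.72, 1.54 and 1.15 CPM, below every 8-week bladder and above every 2-week bladder.

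ENSRNOG00000004731 followed next under the same conditions, and the 5 called genes under 1 log2 CPM that rose had larger log2 fold changes than it. It measured 3.03, 5.77 and 4.46 CPM at 2 weeks and 10.0, 16.2 and 12.5 CPM at 8 weeks. The weeks did not overlap, and the means were 4.42 ± 1.37 and 12.9 ± 3.08 CPM (SD, n = 3). The log2 fold change was 1.53 (SE 0.31, adjusted p in edgeR = 0.0397), a 2.89-fold increase. At 16 weeks levels were 16.0, 11.6 and 9.45 CPM, of which the first 2 lay within the 8-week range and the last just below it. Levels at 0 weeks were 2.21, 12.7 and 2.12 CPM, so that 1 of the 3 bladders again stood among the 8-week values. Above 1 log2 CPM a larger fitted increase, of 1.79 on the log2 scale (SE 0.43, adjusted p in edgeR = 0.0494), belonged to the 1 called gene whose weeks overlapped, which was singled out after its values were seen. It measured 38.6, 26.6 and 64.1 CPM at 2 weeks and 255.8, 131.3 and 58.4 CPM at 8 weeks, so that 8-week replicate 3 lay within the 2-week range.

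ENSRNOG00000047706 had the largest decrease among called genes, although some genes that did not pass the threshold had larger fitted decreases. It measured 51.6, 53.4 and 57.9 CPM at 2 weeks and 12.6, 9.63 and 10.0 CPM at 8 weeks. The bladders of each week lay close together, with means of 54.3 ± 3.28 and 10.8 ± 1.64 CPM (SD, n = 3) and a wide gap between them. The log2 fold change was -2.34 (SE 0.38, adjusted p in edgeR = 0.0397), a 5.06-fold lower level at 8 weeks. At the next week sampled, 16 weeks, the bladders held 28.7, 52.4 and 130.2 CPM, each above every 8-week bladder. At 0 weeks levels were 17.0, 39.2 and 50.9 CPM, between the 8-week and 2-week ranges.

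ENSRNOG00000020951 fell as well, from 6.15, 4.19 and 7.41 CPM at 2 weeks to 1.65, 0.688 and 1.80 CPM at 8 weeks. These values rest on 53 to 73 counts per library at 2 weeks and 6 to 16 at 8 weeks, and the weeks did not overlap. The means were 5.92 ± 1.62 and 1.38 ± 0.604 CPM (SD, n = 3), with a log2 fold change of -2.09 (SE 0.43, adjusted p in edgeR = 0.0397), a 4.25-fold lower level. Among the 4 genes it alone had all 0-week bladders on the far side of the 2-week range, at 10.6, 13.7 and 9.48 CPM. At 16 weeks it stayed low, at 1.66, 2.57 and 2.10 CPM.

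Set against the same 2-week bladders, the 16-week controls passed the threshold in 3 of these 4 genes and in 6.83% of all tested genes. The 4 genes were chosen for their distance from those 2-week bladders, so nothing is read from the 3 of 4. The log2 fold change of 16 minus 2 weeks was 2.97 (SE 0.77, adjusted p in edgeR = 0.0365) for ENSRNOG00000043249 and 1.48 (SE 0.31, adjusted p in edgeR = 0.0249) for ENSRNOG00000004731. For ENSRNOG00000020951 it was -1.50 (SE 0.40, adjusted p in edgeR = 0.0395). For ENSRNOG00000047706 it was 0.37 (SE 0.34, adjusted p in edgeR = 0.503), opposite in sign to its 8-week change. The 2-week bladders enter both comparisons, so these values are no second measurement of the 2-week level.

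All 4 calls were lost when any 1 of the 2-week controls, 8-week control replicate 2, SCI 2-week replicate 1 or SCI 8-week replicate 3 was left out, and in the model of all 21 libraries. Without SCI 16-week replicate 1 or 8-week control replicate 3, only ENSRNOG00000043249 kept its call, and without SCI 16-week replicate 3 ENSRNOG00000004731 and ENSRNOG00000020951 lost theirs. ENSRNOG00000004731 also lost its call in DESeq2 on all 21 libraries. DESeq2 gave no adjusted p for ENSRNOG00000043249 with 18 or 21 libraries, nor for ENSRNOG00000020951 with 18. Over the alternatives that gave one, the adjusted p of ENSRNOG00000043249 ran from 3.48e-06 to 0.137 and that of ENSRNOG00000004731 from 0.000856 to 0.155. For ENSRNOG00000047706 it ran from 7.76e-07 to 0.126, and for ENSRNOG00000020951 from 0.000766 to 0.126. The log2 fold change of ENSRNOG00000043249 lay between 3.33, without 2-week control replicate 2, and 4.43, without 2-week control replicate 3, and the former lowers its fold by over 1.5 times. That of ENSRNOG00000004731 lay between 1.32 and 1.79, that of ENSRNOG00000047706 between -2.48 and -2.27 and that of ENSRNOG00000020951 between -2.33 and -1.78.

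**Figure D3:**
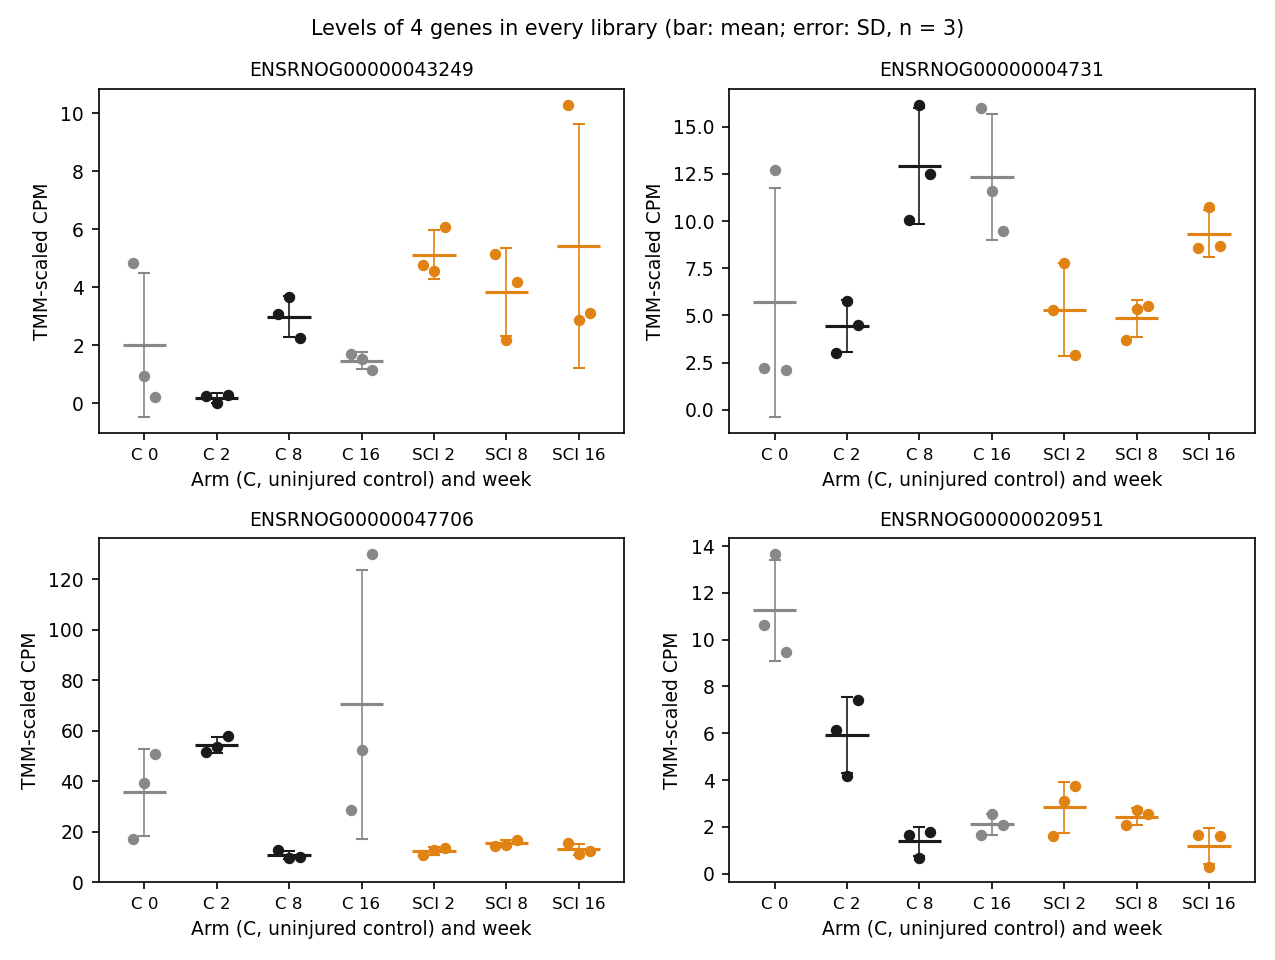
TMM-scaled CPM (vertical axes) of the 4 genes in each of the 21 libraries, by arm and week (horizontal axes); points are libraries, bars means and error bars SD (n = 3). In each gene the 2-week and 8-week controls (black) do not overlap, and the SCI bladders (orange) of 2 and 8 weeks overlap in all but ENSRNOG00000047706.

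In the injured bladders the same interval gave other values for these genes. ENSRNOG00000043249 was at 4.76, 4.56 and 6.09 CPM in SCI bladders at 2 weeks and at 5.15, 2.18 and 4.20 CPM at 8 weeks, with a log2 fold change of -0.40 (SE 0.44, adjusted p in edgeR = 0.974). Its SCI levels at 2 weeks were above those of all 2-week and 8-week controls. ENSRNOG00000004731 was at 5.27, 7.77 and 2.88 CPM and then 3.69, 5.35 and 5.48 CPM, a log2 fold change of -0.15 (SE 0.33, adjusted p in edgeR = 0.978). ENSRNOG00000047706 was at 10.8, 12.8 and 13.6 CPM and then 14.5, 15.0 and 16.9 CPM, nearer to the 8-week than to the 2-week controls throughout. ENSRNOG00000020951 was at 1.62, 3.11 and 3.76 CPM and then 2.06, 2.73 and 2.54 CPM, below every 2-week control at both weeks. The difference between the control change and the SCI change was 4.37 (SE 0.87, adjusted p in edgeR = 0.133) on the log2 scale for ENSRNOG00000043249 and 1.68 (SE 0.45, adjusted p in edgeR = 0.220) for ENSRNOG00000004731. It was -2.65 (SE 0.54, adjusted p in edgeR = 0.135) for ENSRNOG00000047706 and -1.87 (SE 0.61, adjusted p in edgeR = 0.285) for ENSRNOG00000020951, so in this model it passed the threshold for none of the 4. In other models it did for some. For ENSRNOG00000047706 the adjusted p of this difference was 8.54e-05 in edgeR with only the 12 libraries of 2 and 8 weeks, 0.000555 by DESeq2, 0.000659 by the likelihood ratio test and 0.00733 by DESeq2 on 21 libraries. It was also under 0.05 for this gene without 16-week control replicate 1 (0.0283) or 3 (0.00139) or SCI 8-week replicate 2 (0.0365), and ran up to 0.354 over all alternatives. For ENSRNOG00000043249 it was 0.000791 by DESeq2, 0.000199 by the likelihood ratio test and 0.0398 by DESeq2 on 21 libraries, 0.0365 without SCI 8-week replicate 2 and 0.0455 without SCI 16-week replicate 1, and ran up to 0.401. For ENSRNOG00000004731 it was 0.0496 by DESeq2 and 0.0421 by the likelihood ratio test, and ran up to 0.561. For ENSRNOG00000020951 the adjusted p ran from 0.110 to 0.543.

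Across all tested genes, the control and SCI changes over the interval differed in 1 gene, 0.00661% of 15138, by an interaction test in edgeR, while 1887 (12.5%) reached an unadjusted p under 0.05. In that gene the uninjured bladders held 87.3, 75.1 and 92.8 CPM at 2 weeks and 164.1, 153.2 and 124.0 CPM at 8 weeks. The SCI bladders held 125.1, 98.0 and 87.1 CPM at 2 weeks and 50.4, 70.3 and 49.3 CPM at 8 weeks. Levels thus rose in the controls, by 0.79 on the log2 scale (adjusted p in edgeR = 0.0397), while the SCI value was -0.87 (adjusted p in edgeR = 0.111). The difference between the changes was 1.66 (SE 0.23, adjusted p in edgeR = 0.0417). The call was lost without any 1 of the 2-week controls, 16-week control replicate 2, SCI 2-week replicate 1 or 2, SCI 8-week replicate 1 or 3, or SCI 16-week replicate 3, where the count of such genes was 0 and 1251 to 1975 genes reached an unadjusted p under 0.05. It was also lost without 8-week control replicate 1 or 2, where 1 gene was called but not the same one. Leaving out SCI 8-week replicate 2 gave 382 such genes, against 4 without 16-week control replicate 1 or 3, and 2 without 8-week control replicate 3 or SCI 16-week replicate 1.

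The called genes were also read in the SCI libraries, which are other animals than the 6 compared bladders. The SCI libraries still entered the choice of these genes through the shared spread and the filter on low counts. Of the 87 genes that rose in controls, 39 had a higher mean log2 CPM in SCI bladders at 8 than at 2 weeks, with a median difference of -0.02. Of the 124 that fell, 36 were higher, with a median difference of -0.06. Over all tested genes 50.3% were higher. In edgeR 0 of the 211 genes passed the adjusted threshold in SCI bladders, where 3 of all tested genes (0.0198%) did. At an unadjusted p under 0.05 were 13 of the 87 (14.9%) and 12 of the 124 (9.68%), against 5.69% of all tested genes. These counts turned on single SCI libraries. Of the 87 genes, 18 were higher without SCI 8-week replicate 2 and 59 without SCI 8-week replicate 1. Of the 124 genes, 79 were higher without SCI 8-week replicate 2 and 71 without SCI 2-week replicate 3. No direction over the interval can therefore be given for these genes in injured bladders.

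Levels of the called genes in single libraries are given relative to the mean of the 6 compared bladders, as the median over genes of the difference in log2 CPM. For the genes that rose, the medians of the 16-week controls were 0.11, 0.27 and 0.04, below the 0.32 to 0.38 of the 8-week bladders that the choice of genes had set. For the genes that fell they were -0.28, -0.18 and -0.09, against -0.41 to -0.21 at 8 weeks. All 16-week controls thus lay on the 8-week side of the midpoint for both groups of genes. The 0-week controls did not lie together. Replicates 1 and 3 stood at -0.64 and -0.26 for the genes that rose and at 0.42 and 0.23 for those that fell, on the 2-week side, whereas replicate 2 stood at 0.16 and -0.29, on the 8-week side. All 9 SCI libraries were on the 2-week side for both groups of genes, from -0.64 to -0.05 for the genes that rose and from 0.10 to 0.53 for those that fell. A lean in the same directions was also present over all tested genes. By the group mean, 62.7% of all tested genes in the 16-week controls were nearer the 8-week than the 2-week mean, against 28.0%, 31.1% and 32.6% in SCI bladders at 2, 8 and 16 weeks. In SCI bladders at 8 weeks, replicate 2 was nearest the midpoint, at -0.09 and 0.10. The median over all tested genes, which the scaling largely sets, ran from 0.00 to 0.01.

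**Figure D4:**
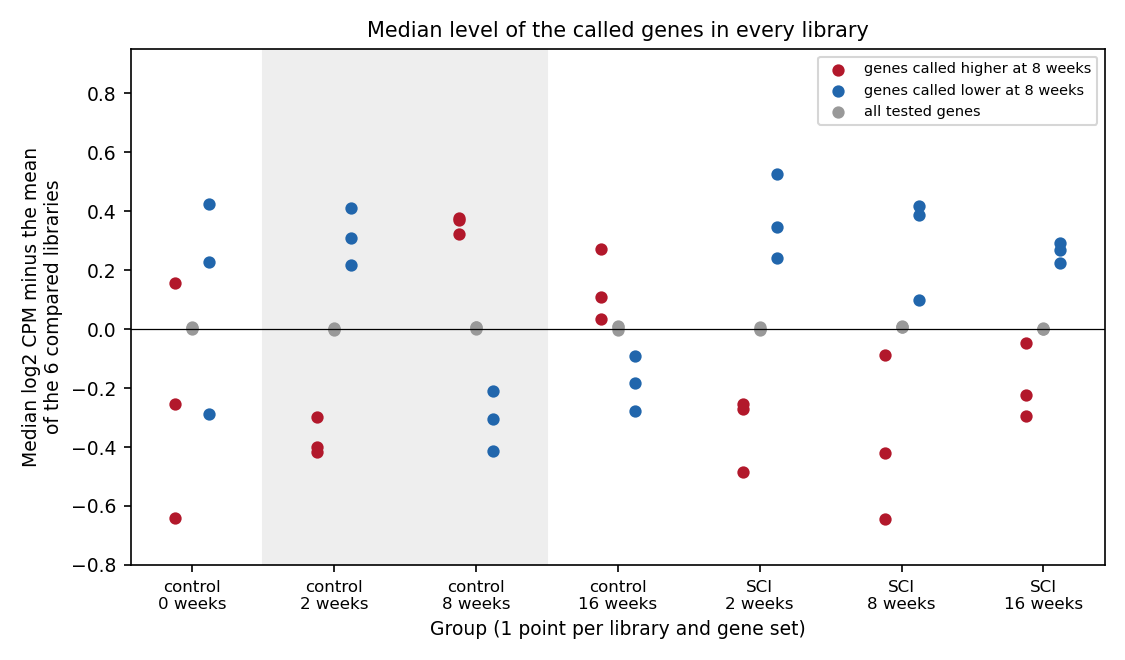
Median difference in log2 CPM from the mean of the 6 compared bladders (vertical axis) for the genes that rose (red), fell (blue) and all tested genes (grey) in every library, by group (horizontal axis). Positions of the 2-week and 8-week controls (shaded) follow from the choice of genes; the 16-week controls lie on the 8-week side and the SCI libraries on the 2-week side, as do 62.7% of all tested genes in the former and all but 28.0 to 32.6% in the latter, and 1 of the 0-week controls stands apart from the other two.

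Over the whole transcriptome bladders of different weeks mostly differed by more than bladders of the same week. The median absolute log2 difference between a pair of libraries was 0.148 to 0.178 within the 2-week bladders and 0.203 to 0.214 within the 8-week bladders. Between weeks it was 0.193 to 0.287 over 9 pairs. Of these, 8 pairs, from 0.215 upward, exceeded every pair of the same week, and the exception was 2-week replicate 3 with 8-week replicate 1. Of the total sum of squares in log2 CPM, 35.1% lay between the weeks, and every other division of the 6 libraries into 3 and 3 gave a smaller share. In an exact one-sided permutation test over the 20 arrangements p was 0.1, the smallest value this design allows. The median SD of log2 CPM over genes was 0.141 at 2 weeks and 0.182 at 8 weeks.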

How the data were processed

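Full-thickness bladder RNA was depleted of ribosomal RNA and made into stranded dUTP libraries, which were sequenced as 51-base paired reads, and counts from the flow cells of a library were summed by the authors. The authors deposited raw counts of reads per gene for 21 libraries. The submitters' processing notes name FastQC 0.11.9, MultiQC 1.13, Trim Galore 0.6.10, STAR 2.7.10a, SAMtools 1.17, featureCounts 2.0.3 and Rnor_6.0. The annotation release and the strand setting of the counting are not given in the sources used here, so overlapping and antisense genes and near-identical copies may share reads.

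From the counts, TMM factors, a filter on low counts (filterByExpr), quasi-likelihood F tests and Benjamini-Hochberg adjustment over all 15138 tested genes were computed with edgeR 4.0.16 in R 4.3.3. The model held the 18 libraries of 2, 8 and 16 weeks, as the study describes its design, with 12 residual degrees of freedom. Genes, lists and this choice of libraries were made with earlier results of these data known, including 0 calls with all 21 libraries. Standard errors were derived from the F statistic, CPM values used TMM factors over all 21 libraries, and log2 CPM a prior count of 2. The 2 largest called changes per direction, with an average of at least 1 log2 CPM and no overlap between weeks, were named (203 genes met the conditions), since identifiers matched 0 of 47357 genes of the RefSeq table. Labels list replicates as separate samples, and p-values measure the spread between these samples. Replicates of a group differed beyond counting noise (chi-square per degree of freedom 8.28 to 19.1). The common biological coefficient of variation was 0.144. Alternatives were DESeq2 1.42.0, the edgeR likelihood ratio test, other scalings, filters, thresholds and sample sets, a replicate block and leaving out each library. On simulated counts of this comparison with 14992 genes, 77 of 100 genes changed 2-fold and 97 of 100 changed 4-fold were recovered, with 13 unchanged genes called. The changed genes were drawn from those averaging over 1 log2 CPM, and all other groups were given equal means. Counts were drawn from the distribution that the model assumes. These settings differ from the data, so the recovery does not measure the sensitivity reached here.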

Additional observations from a re-analysis of the deposited data

Results flagged for a closer look

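The change from 2 to 8 weeks differed between uninjured and SCI bladders in 1 gene by the interaction test in edgeR. It is listed here because effects under the same contrast differed between arms. The call was lost when any 1 of several libraries was left out, and with only the 12 libraries of 2 and 8 weeks. All 3 uninjured bladders of 8 weeks were above all 3 of 2 weeks in this gene. All 3 SCI bladders of 8 weeks were below all 3 SCI bladders of 2 weeks. The gene was picked by its difference in these same libraries, so this separation is no further support. Separation of the controls in either direction was found for 27.3% of all tested genes. The log2 difference of the changes was 1.66 (SE 0.23, adjusted p in edgeR = 0.0417).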

How the results depend on the processing

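For 8 against 2 weeks in controls, the 211 calls became 0 with all 21 libraries (2881 at an unadjusted p under 0.05; DESeq2, added after seeing the data, called 269), 453 with only the 6 compared libraries, 615 with only the 9 controls of 2, 8 and 16 weeks, 1147 by DESeq2, 1015 by the edgeR likelihood ratio test, 831 with library size only, 333 without a filter on low counts, and 1584 with an unadjusted p and a change of 0.5 or more on the log2 scale. Of the 211 genes, 139 were among the 453, 189 among the 615 and 197 among the 1147. Counts of 195 with RLE factors, 211 with a CPM filter and 161 with a fold limit beside the adjusted p stayed within 1.5 times. Leaving out 1 library at a time gave 0 to 1184.

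The number of genes whose change differed between arms went from 1 to 3 with all 21 libraries, 83 by DESeq2, 103 by the likelihood ratio test, 2 without a filter, 1238 with an unadjusted p and the fold limit, and 28 by DESeq2 on 21 libraries. With only the 12 libraries of 2 and 8 weeks, 1 other gene was called, in the opposite direction, ENSRNOG00000047706. Leaving out 1 library gave 0 to 382. The fit to the 9 controls cannot give this difference. The cause of these shifts was not tested.

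Replicate numbers are shared across weeks, but same-numbered samples did not deviate together (correlations of -0.04, -0.09 and -0.20), so they share only a number. The replicate block gave 451 calls (194 higher, 257 lower) and 2 genes that differed between arms. No bladder correlated best with its own number. None of the 241 values of named genes changed sign. These genes were chosen for large changes without overlap, and alternatives of threshold reuse the same estimates, so nothing is read from this. Counts of under 10 per library limit the precision of rare genes.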
